A study of Mus musculus with 6 samples.

Results

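Ferritin and iron transport genes were examined as a set of 9 genes, selected by name among 17191 genes in the deposited tables: the ferritin chains Fth1 and Ftl1, the iron exporter Slc40a1, the transferrin receptor Tfrc, the metal transporters Slc11a1 and Slc11a2, the ferritin autophagy receptor Ncoa4, and Aco1 and Ireb2, which encode the iron regulatory proteins. All 9 have a row in both tables, and 8 passed the filter on low counts. The libraries came from subcutaneous tumours of CT26, a mouse colorectal carcinoma line, in female BALB/c mice that were 6 to 8 weeks old. Dosing began at tumour volumes of 100 to 200 mm3 and lasted 3 weeks. The vehicle group has 3 libraries, and the TP-18 group, dosed at 50 mg/kg by mouth once a day with a compound identified only by this code, has 3.

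The submitted texts differ on which cells were sequenced. One names sorting for CD11b, F4/80 and CD206, another names magnetic bead selection for CD11b, and the sample fields name the tumour line. The genes for all 3 surface markers were abundant: Itgam had 803 to 1319 CPM, Mrc1 629.6 to 1452 CPM and Adgre1 99.9 to 295 CPM over the 6 libraries (CPM, counts scaled to a common library size with TMM factors). Of 6 epithelial or carcinoma markers, Krt20 was also abundant, at 239.3 to 521.5 CPM, and the others had at most 6.985 CPM. These levels do not settle which cells were sequenced. No text says that each library came from its own mouse, so the p-values measure the spread between these libraries, which may be technical.

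Cells take up iron bound to transferrin through the transferrin receptor. Slc11a2 (DMT1) carries the iron across the endosomal membrane, and Slc11a1 (NRAMP1) moves divalent metals across the phagosome membrane of macrophages. Iron that is not used is stored inside ferritin, a shell of heavy chains, which oxidise the iron, and light chains, which help it to mineralise. It returns to the cytosol when NCOA4 brings ferritin to autophagosomes, and leaves the cell through ferroportin, the product of Slc40a1. When iron is scarce, the iron regulatory proteins bind a hairpin in messenger RNAs, the iron-responsive element. Bound near the start of a message, as in ferritin and ferroportin, they block its translation, and bound after the coding region, as in Tfrc, they protect the message from decay. Macrophages are the main cells that recycle iron from red blood cells.

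The hairpin sequences are shown because they divide these genes by the kind of control they are known for. They were found in GENCODE M21 transcripts (GRCm38) by a search for the letters CNNNNNCAGTGNNNNNN on the transcript strand, where the runs of 5 bases on both sides of the 6-base loop can pair and at least 3 pairs follow below the bulged C. Each is printed 5′ to 3′ as DNA with the loop in capitals.
Fth1 at chr19:9982732-9982760, plus strand, 5′ untranslated region: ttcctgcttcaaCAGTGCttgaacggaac
Ftl1 at chr7:45459779-45459807, minus strand, 5′ untranslated region: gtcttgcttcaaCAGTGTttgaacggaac
Slc40a1 at chr1:45925465-45925493, minus strand, 5′ untranslated region: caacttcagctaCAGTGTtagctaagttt
Tfrc at chr16:32631219-32631247, plus strand, 3′ untranslated region: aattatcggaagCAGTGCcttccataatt
Tfrc at chr16:32631598-32631626, plus strand, 3′ untranslated region: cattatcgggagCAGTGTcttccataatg
Tfrc at chr16:32631663-32631691, plus strand, 3′ untranslated region: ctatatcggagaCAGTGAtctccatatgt
Tfrc at chr16:32631710-32631738, plus strand, 3′ untranslated region: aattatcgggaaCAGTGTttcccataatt
Thus 4 of the 9 genes held a match, 3 of them before the coding region and 1, with 4 matches, after it. Among 21877 protein-coding gene symbols in the annotation, 0.0549% held a match in a 5′ and 0.219% in a 3′ untranslated region. In Slc11a2, which is known for a hairpin in some of its transcripts, and in the other 4 genes these letters with this pairing were not found. The counts are per gene and do not separate transcripts with and without a hairpin.

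Per unit of length, the 2 ferritin chains stood far above the rest. FPKM, the authors' values scaled by gene length and library total, over the 6 libraries ran from 3348 to 6432 for Fth1 and from 2921 to 4719 for Ftl1. Their ranges overlap, but Fth1 exceeded Ftl1 in 6 of 6 libraries. This order rests on Ftl1 counts, which are uncertain because of similar genes, as described below. Together the 2 chains took 0.599% to 1.06% of all counts. Slc11a1 followed at 25.9 to 69.9 FPKM, then Tfrc at 14.8 to 27.2 FPKM. Aco1 (10.9 to 16.3 FPKM), Slc11a2 (6.66 to 17.0 FPKM) and Ncoa4 (8.48 to 11.9 FPKM) overlapped one another, Tfrc overlapped Slc11a1, Aco1 and Slc11a2, and Ireb2 (5.44 to 7.24 FPKM) overlapped the low end of Slc11a2. Slc40a1 was lowest, at 0.0180 to 0.435 FPKM.

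The comparison of TP-18 with vehicle asked how the genes of iron storage and transport differed in these tumour-derived cells after treatment. In TP-18 libraries the messages of both ferritin chains and both NRAMP-type transporters were lower and that of the transferrin receptor was higher. Those of both iron regulatory proteins lay within the vehicle range in CPM. The Ncoa4 message overlapped between the groups in CPM, although TP-18 1 (41.3) and TP-18 2 (39.5) stood above the vehicle maximum of 36.3. None of the 8 tested genes passed the edgeR quasi-likelihood test at an adjusted p under 0.05, against 14 of all 12721 genes (0.11%), 3 higher and 11 lower (3 and 1 with library totals as scaling). At an unadjusted p under 0.05, 4 of the 8 were lower, against 8.7% of all tested genes, and 1 was higher, against 7.56%. The same 5 genes had groups that did not overlap in CPM, against 11.7% of all genes below and 11.6% above. In deposited FPKM, 2 genes lay below without overlap (Fth1 and Slc11a2; 4.76% of all genes) and 2 above (Tfrc and Ncoa4; 23.5%). The median log2 fold change of the 8 genes was -0.31, beside 0.02 for all tested genes. With DESeq2, a different count model, 3 of them were called lower at an adjusted p under 0.05, namely Fth1, Slc11a1 and Slc11a2. Of 17189 genes with a DESeq2 p-value, 1.97% were called lower and 0.931% higher. These include genes under the low-count filter, so the shares are not over the same genes as those of edgeR.

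**Figure D1:**
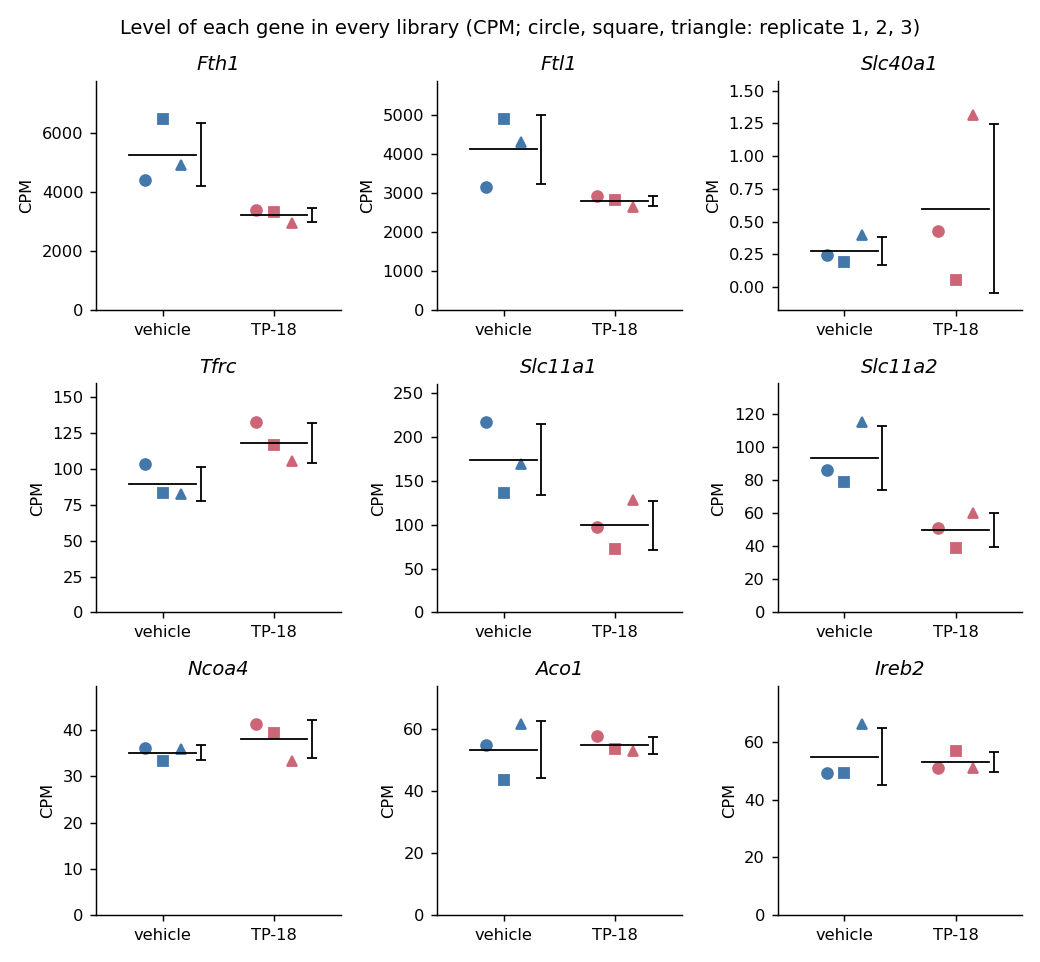
Level of each of the 9 genes (y axis, CPM with TMM scaling, linear and on its own range for each gene) in the vehicle and TP-18 libraries (x axis; symbols mark replicates 1 to 3, lines the mean, bars 1 SD). All TP-18 points lie below all vehicle points for Fth1, Ftl1, Slc11a1 and Slc11a2 and above them for Tfrc; the bar of Slc40a1 extends below 0 because 1 library carries most of its counts.

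Fth1 (Entrez 14319, chromosome 19, 9980598 to 9985098), the ferroxidase chain of ferritin, had 4413, 6484 and 4943 CPM in vehicle replicates 1, 2 and 3. In TP-18 replicates 1, 2 and 3 it had 3384, 3342 and 2951 CPM. The lowest vehicle library therefore stood above the highest TP-18 library, vehicle 2 stood highest, and the TP-18 libraries lay close together. The means were 5280 ± 1075 and 3225 ± 239 CPM (SD, n = 3 each). On the log2 scale the difference was -0.71 ± 0.17 (SE; edgeR adjusted p = 0.158). DESeq2 gave -0.73 ± 0.20 with an adjusted p = 0.0111. Leaving out vehicle 2 gave -0.55, with an edgeR adjusted p = 0.2.

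Ftl1 (Entrez 14325, chromosome 7, 45457944 to 45459884), the light chain, had 3152, 4898 and 4311 CPM in vehicle replicates 1, 2 and 3, and 2920, 2814 and 2651 CPM in the TP-18 replicates. The groups did not overlap in CPM, and vehicle 2 was again highest. Its log2 fold change was -0.56 ± 0.18 (edgeR adjusted p = 0.224; DESeq2 adjusted p = 0.0883). In deposited FPKM, which carry no TMM factor, vehicle 1 (3126) lay inside the TP-18 range of 2921 to 3173, so the groups overlapped on that scale. Counts of Ftl1 are uncertain: the annotation holds 17 other genes with at least 80% identity over at least 80% of its coding sequence, 5 of them with at least 95%, and the treatment of reads that match several places is not given in the sources used here. One of these copies, Ftl1-ps2, has a row in the deposited table, with 0 to 3 counts per library. Ftl1 also shares 464 exonic bases with Gm22133 and the opposite-strand Gm10252. For Fth1 the same search found 2 genes at 80% identity and 0 at 95%.

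The excess of Fth1 over Ftl1 FPKM did not differ detectably between the groups. The uncertainty of Ftl1 counts applies to this excess as well. The ratio of Fth1 to Ftl1 FPKM, which needs no scaling between libraries, was 1.44, 1.36 and 1.18 in vehicle replicates 1, 2 and 3. In the TP-18 replicates it was 1.19, 1.22 and 1.15. The groups overlapped, since vehicle 3 lay among the TP-18 libraries. The mean log2 ratio differed by -0.16 (exact two-sided permutation p = 0.3, where 3 against 3 libraries cannot go below 0.1).

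Tfrc (Entrez 22042, chromosome 16, 32608920 to 32632794), the receptor that brings transferrin iron into the cell, had 103, 83.0 and 82.8 CPM in vehicle replicates 1, 2 and 3. The TP-18 replicates had 133, 116 and 105 CPM. All TP-18 libraries stood above all vehicle libraries, although TP-18 3 exceeded vehicle 1 by little. The means were 89.7 ± 11.8 and 118 ± 13.8 CPM (SD, n = 3 each). The log2 difference was 0.40 ± 0.15 (edgeR adjusted p = 0.27). With library totals as scaling, which shift the median of all genes up by 0.177, it was 0.57 ± 0.16. Without any 1 of vehicle 2, vehicle 3, TP-18 1 and TP-18 2, or after correction for GC content and length, it was 0.31 to 0.41 and its unadjusted p was no longer under 0.05.

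Set against Fth1 within each library, which needs no scaling between libraries, the difference was larger. This follows from the higher Tfrc and the lower Fth1 given above and is not a separate result. Tfrc FPKM were 0.428%, 0.234% and 0.306% of Fth1 FPKM in vehicle replicates 1, 2 and 3, and 0.718%, 0.636% and 0.653% in the TP-18 replicates. The groups did not overlap, and the vehicle libraries spread more widely than the TP-18 libraries. The means were 0.323% ± 0.0981 and 0.669% ± 0.0431 (SD, n = 3 each), a 2.13-fold difference in the mean log2 ratio (exact two-sided permutation p = 0.1, the smallest that 3 against 3 allow). The ratio was not computed with the GC and length trend removed, where the log2 fold changes were 0.35 for Tfrc and -0.57 for Fth1. These 2 messages carry their hairpins on opposite sides of the coding region, and whether that bears on the ratio was not tested. Vehicle 2 had the lowest ratio and vehicle 1 the highest of its group.

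**Figure D2:**
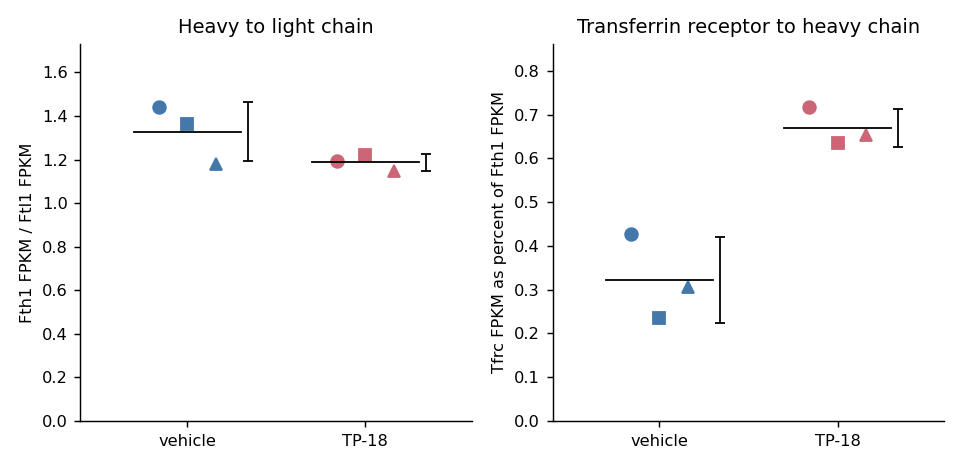
Ratios within each library from deposited FPKM values: Fth1 over Ftl1 (left y axis, ratio) and Tfrc as a percentage of Fth1 (right y axis, percent), by group, with symbols for replicates 1 to 3, lines at the mean and bars of 1 SD. The ratio of ferritin chains overlaps between the groups, whereas Tfrc is at most 0.428% of Fth1 in vehicle and at least 0.636% in TP-18 libraries.

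Slc11a2 (Entrez 18174, chromosome 15, 100387898 to 100425072), the endosomal and surface importer of ferrous iron, showed the lowest fold change of the set with all libraries in the fit; without vehicle 3, Slc11a1 (-0.84) and Fth1 (-0.77) were lower than Slc11a2 (-0.73). It had 86.1, 79.2 and 116 CPM in vehicle replicates 1, 2 and 3, and 51.0, 39.3 and 60.0 CPM in the TP-18 replicates. The groups did not overlap in CPM or in FPKM. The means were 93.6 ± 19.3 and 50.1 ± 10.4 CPM (SD, n = 3 each). The log2 difference was -0.90 ± 0.21 (edgeR adjusted p = 0.15; DESeq2 adjusted p = 0.00793). Slc11a2 shares 402 exonic bases with Gm5475 on the opposite strand, and whether counting used strand is not given in the sources used here.

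Its relative Slc11a1 (Entrez 18173, chromosome 1, 74375195 to 74386062), a phagosomal transporter of myeloid cells, had 218, 136 and 170 CPM in vehicle replicates 1, 2 and 3. The TP-18 replicates had 97.8, 72.7 and 128 CPM. TP-18 3 came close to vehicle 2, and in FPKM the groups overlapped, with a vehicle minimum of 42.4 and a TP-18 maximum of 45.7. The log2 fold change was -0.81 ± 0.25 (edgeR adjusted p = 0.219; DESeq2 adjusted p = 0.0493). BALB/c mice are known to carry the loss-of-function allele of this gene, so its message level does not stand for transport activity in this strain.

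Slc40a1 (Entrez 53945, chromosome 1, 45908068 to 45926523), the only known cellular iron exporter, was close to undetected. It had 4, 3 and 6 counts in vehicle replicates 1, 2 and 3 and 8, 1 and 24 counts in the TP-18 replicates, out of library totals of 16371128 to 17597645. TP-18 3 held most of these counts and TP-18 2 the fewest, so the groups overlapped. At this depth the gene did not pass the filter and no difference was detectable. Other genes of iron-recycling macrophages were detected. Hmox1 had 265 to 969 CPM in vehicle and 219 to 472 CPM in TP-18 libraries, Vcam1 270 to 681 and 211 to 365 CPM, and Cd163 26.2 to 393 and 19.1 to 93.1 CPM, all with overlap. Spic, the regulator of red pulp macrophages, was low but did not overlap, at 1.95 to 3.44 CPM in vehicle and 0.217 to 1.75 CPM in TP-18 libraries.

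Ncoa4 (Entrez 27057, chromosome 14, 32159865 to 32179855), the receptor that delivers ferritin for degradation, had 36.3, 33.3 and 36.0 CPM in vehicle replicates 1, 2 and 3 and 41.3, 39.5 and 33.4 CPM in the TP-18 replicates. The groups overlapped in CPM through TP-18 3, with a log2 fold change of 0.11 ± 0.14 (edgeR adjusted p = 0.706). In FPKM they did not overlap, at most 9.51 in vehicle and at least 9.74 in TP-18 libraries. Scaled to library totals, as FPKM are, all tested genes had a median of 0.20 and Ncoa4 had 0.29 on the log2 scale.

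The messages of the 2 iron regulatory proteins showed no detectable difference. Aco1 (Entrez 11428, chromosome 4, 40143081 to 40198338), which encodes cytosolic aconitase that becomes an RNA-binding protein when it loses its iron-sulphur cluster, had 54.8, 43.4 and 61.5 CPM in vehicle replicates 1, 2 and 3 and 57.7, 53.5 and 52.8 CPM in the TP-18 replicates. Ireb2 (Entrez 64602, chromosome 9, 54863789 to 54912530), whose protein is degraded when iron is plentiful, had 49.5, 49.3 and 66.3 CPM and 51.2, 57.0 and 51.0 CPM in the same order. For both, every TP-18 library lay within the vehicle range in CPM. In deposited FPKM the groups overlapped for both, but Aco1 in TP-18 1 (16.28) and TP-18 2 (15.25) exceeded the vehicle maximum of 15.20. The log2 fold changes were 0.04 ± 0.15 for Aco1 and -0.05 ± 0.16 for Ireb2 (edgeR adjusted p = 0.921 and 0.891), and the sign of Ireb2 turned with library totals as scaling (0.13). Both proteins are controlled mainly after translation, so these levels describe their messages only.

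**Figure D3:**
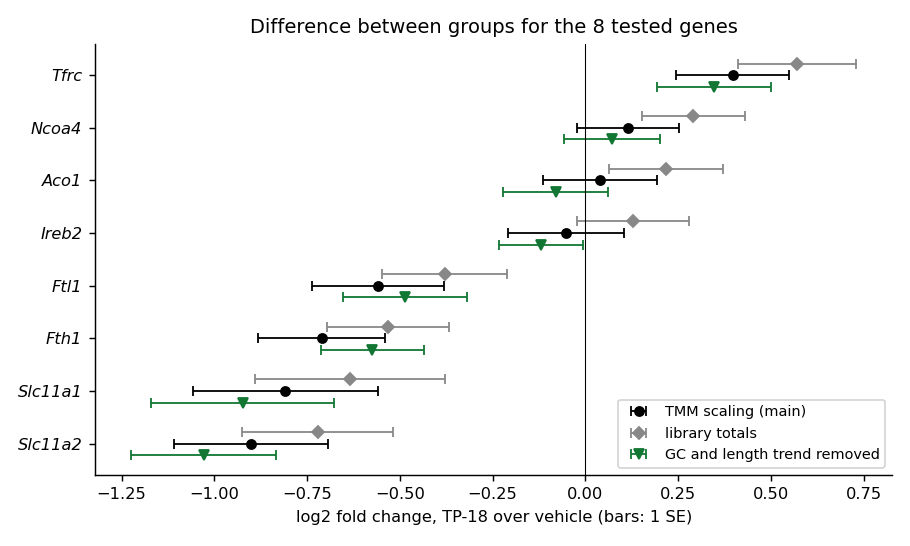
Log2 fold change of TP-18 over vehicle (x axis, bars 1 SE) for the 8 tested genes (y axis) with TMM scaling, with library totals, and with a trend on GC content and length removed. The 4 lowest genes stay below 0 and Tfrc above 0 under all 3, while Ireb2 and Aco1 lie near 0 on either side.

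Markers of the cells in these libraries varied between libraries, and some moved with the treatment. In bulk RNA, fewer cells of a type and less RNA per cell cannot be told apart. For the counts below, 8.7% of all tested genes were lower and 7.56% higher at an unadjusted edgeR p under 0.05. The summed level of 11 macrophage markers, all detected and 0 of them called by edgeR, was 3968 to 8389 CPM in vehicle and 4492 to 6753 CPM in TP-18 libraries. This sum was lowest in vehicle 2, where ferritin was highest, but it weighs abundant genes most and single markers differed. C1qa had 1536, 467.6 and 1670 CPM in vehicle replicates 1, 2 and 3, whereas Fcgr1 had 112.7, 147.2 and 100.6 CPM. Of the 11 markers, 8 had negative and 3 positive fold changes, with a median log2 fold change of -0.185 and 2 lower at an unadjusted p under 0.05. The 5 genes of iron-recycling macrophages, Slc40a1 among them, summed to 975 to 1623 CPM in vehicle and 539 to 776 CPM in TP-18 libraries, without overlap and in the direction of ferritin. All 4 tested ones were negative, with a median log2 fold change of -1.36, 1 lower at an unadjusted p under 0.05 and 0 called. The 7 neutrophil markers, of which Ly6g had no count, summed to 55.5 to 228 CPM and 58.3 to 133 CPM, with vehicle 2 highest. All 7 fibroblast markers had positive fold changes, 6 of them at an unadjusted p under 0.05 and 0 called, and their sum did not overlap, at 739 to 1197 CPM in vehicle and 1476 to 1830 CPM in TP-18 libraries. All 6 endothelial markers were positive too, with a median of 0.70, 1 at an unadjusted p under 0.05 and 0 called, and summed to 31.5 to 154 CPM and 92.7 to 166 CPM. The 6 genes of cycling cells, which are known to carry more transferrin receptor, also had positive fold changes, 2 of them at an unadjusted p under 0.05 and 0 called, and summed to 642 to 972 CPM and 764 to 1440 CPM. The 10 erythroid markers summed to 10.2 to 83.4 CPM and 2.46 to 10.7 CPM, with vehicle 1 highest. All 4 tested erythroid markers had negative fold changes, with a median log2 fold change of -2.43, 2 lower at an unadjusted p under 0.05 and 0 called. The part of any of these in the differences of ferritin, transporters and Tfrc was not tested.

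The wider iron pathway was read from 7 further lists holding 64 tested genes. None passed edgeR after adjustment. At an unadjusted p under 0.05, 8 were lower and 1 higher, where all tested genes gave 8.7% and 7.56%, and the median log2 fold change was -0.07. The list closest in direction to ferritin was that of autophagy genes that act with Ncoa4: 10 of its 11 tested genes were negative, 4 were lower and 0 higher at an unadjusted p under 0.05, and the median was -0.27. Map1lc3a, an LC3 protein that coats autophagosomes, had 17.6, 20.6 and 19.5 CPM in vehicle replicates 1, 2 and 3 and 11.4, 11.8 and 11.5 CPM in the TP-18 replicates. Its log2 fold change was -0.74 ± 0.16 (edgeR adjusted p = 0.139) with no overlap. Its relatives Gabarap (-0.48 ± 0.15) and Gabarapl2 (-0.33 ± 0.12) did not overlap either, with edgeR adjusted p = 0.219 and 0.255. Of the 11 genes, 3 lay below without overlap in CPM and 1 lay above. Over all tested genes the shares were 11.7% and 11.6%.

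Genes of haem handling were split, with 6 of 11 negative, 2 lower at an unadjusted p under 0.05 and a median of -0.10. Hmox1, the enzyme that frees iron from haem, had 265, 969 and 749 CPM in vehicle replicates 1, 2 and 3 and 334, 472 and 219 CPM in the TP-18 replicates. Vehicle 1 lay inside the TP-18 range (log2 fold change -0.95 ± 0.46, edgeR adjusted p = 0.356). Blvrb, a biliverdin reductase, was 74.2 ± 9.15 and 54.7 ± 3.33 CPM (SD, n = 3 each; edgeR adjusted p = 0.219), and Bach1, the haem-sensing repressor of Hmox1 and ferritin genes, had a log2 fold change of -0.68 ± 0.27 (edgeR adjusted p = 0.287). All 8 tested enzymes of haem synthesis were positive, with a median of 0.22 and 0 at an unadjusted p under 0.05. They included Alad (0.39 ± 0.27) and Ppox (0.25 ± 0.18).

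Among 11 tested genes of iron entry the median was 0.12, and 1 was lower at an unadjusted p under 0.05. This was Trf, transferrin itself, with 258, 111 and 508 CPM in vehicle replicates 1, 2 and 3 and 87.8, 85.1 and 125 CPM in the TP-18 replicates. TP-18 3 exceeded vehicle 2, so the groups overlapped (log2 fold change -1.56 ± 0.49, edgeR adjusted p = 0.219). The ferrireductase Steap2 (0.33 ± 0.28) and the endolysosomal channel Mcoln1 (-0.20 ± 0.15) came next by p. All 4 tested genes of iron exit and cytosolic iron chaperones were negative with a median of -0.20, among them the chaperones Pcbp1 (-0.27 ± 0.13, no overlap) and Pcbp2 (-0.08 ± 0.18) and Fbxl5 (-0.25 ± 0.19), the iron sensor that marks Ireb2 protein for degradation. Hamp, which encodes hepcidin, had at most 12 counts in a library and was not tested.

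In mitochondrial iron use, 11 of 15 genes were negative, 1 was lower at an unadjusted p under 0.05 and the median was -0.06. That gene was Slc25a28, a mitochondrial iron importer, with 64.0, 62.6 and 62.0 CPM in vehicle replicates 1, 2 and 3 and 44.4, 52.8 and 45.2 CPM in the TP-18 replicates (log2 fold change -0.41 ± 0.12, edgeR adjusted p = 0.218). The groups did not overlap, and the vehicle libraries lay close together. Iscu, the scaffold of iron-sulphur clusters, followed at -0.28 ± 0.14 and the transporter Abcb10 at 0.31 ± 0.16. Of the other messages known for iron-responsive elements, Cdc42bpa was higher without overlap (0.37 ± 0.13, edgeR adjusted p = 0.238). Epas1 (1.08 ± 0.57) overlapped between groups.

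**Figure D4:**
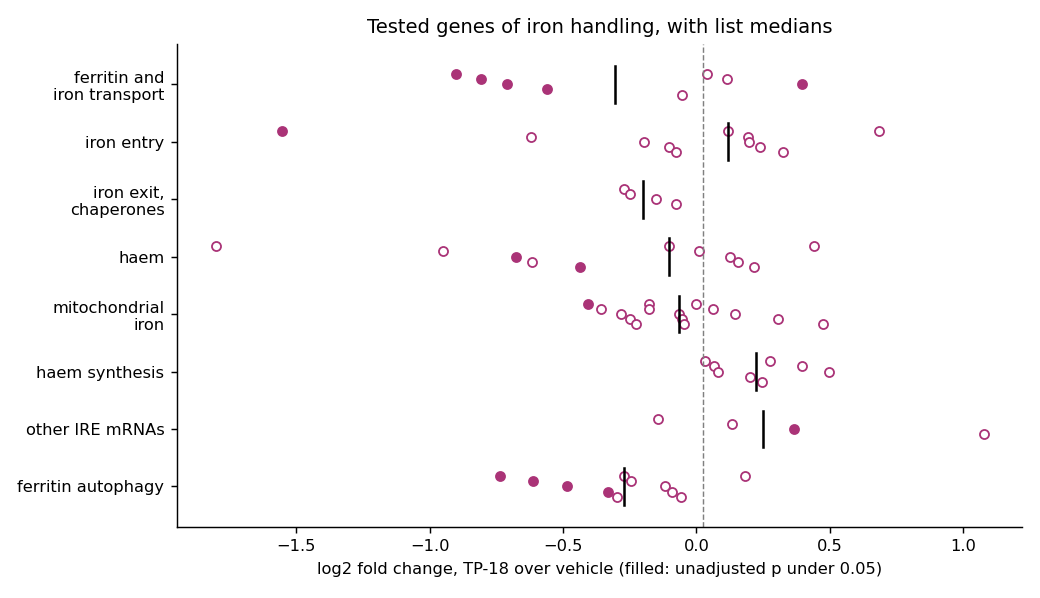
Log2 fold change of TP-18 over vehicle (x axis) for every tested gene of 8 iron lists (y axis); each circle is a gene, filled where the unadjusted edgeR p is under 0.05, black bars are list medians and the dashed line is the median of all tested genes. The ferritin and iron transport list has the lowest median (-0.31), followed by ferritin autophagy (-0.27), and haem synthesis has no gene below 0. The lists were chosen with earlier results of these data known, so their order only describes these data.

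By the rule for likeness, the genes whose log2 CPM followed Fth1 most closely over the 6 libraries, among 9187 with a mean of at least 10 CPM, included Rps14, Arglu1, Utp4 and Rpl34-ps1 (Pearson r 0.994 to 0.996). Ftl1 ranked 108 by this measure (r = 0.958). For Tfrc they were Zc3h7b, Ahdc1, Tmem230, Tbc1d4 and Tbc1d32 (r 0.983 to 0.994), with Fth1 at r = -0.800. These values describe 6 libraries that also share their scaling and treatment, and no p was attached. Slc40a1 had too few counts for this measure.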

How the data were processed

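Messenger RNA was measured in 3 vehicle and 3 TP-18 libraries, grouped by the treatment field of the labels. The authors deposited raw counts per gene and FPKM values; the tools fastp, HISAT2 and HTSeq and the build GRCm38 are named per the submitters' processing notes, and versions and settings are not given in the sources used here. FPKM equalled count over library total and 1 length per gene for all 17191 genes (relative tolerance 1e-06). Total counts were 16371128 to 17597645 per library. Replicates differed by more than sampling noise (chi-square per degree of freedom 27.9 to 80.0), so none was treated as a copy.

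The test was that of edgeR 4.0.16 (R 4.3.3): filterByExpr defaults (minimum count 10, minimum total 15) left 12721 genes, TMM factors (0.924 to 1.07) scaled the libraries, and the quasi-likelihood test had no covariates. P-values were adjusted by Benjamini-Hochberg over all tested genes (threshold 0.05). The SE is the absolute log2 fold change over the square root of F. Ratios of FPKM were compared by exact permutation (scipy 1.17.1). Alternatives were RLE factors, library totals, other filters, DESeq2 1.42.0, limma 3.58.1 (voom, and log2(FPKM + 1) or log2(FPKM + 0.1)), a replicate block and each library left out; a trend on transcript GC content and length (mgcv 1.9.3), removed as an offset per library, was added after seeing the data. Simulated TP-18 and vehicle counts over 12686 genes were tested first: the fit recovered 1 of 67 genes at a fold of 1.5, 19 of 67 at 2 and 54 of 66 at 4, and 10 of its 84 calls were unchanged genes. Copies of ferritin coding sequences were sought with blastn in GENCODE M21 transcripts.

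The members and lists were chosen with earlier results of these data known. All 9 members were named; from each further list the 3 tested genes with the smallest p were named, and marker genes, Hamp and Ftl1-ps2 were named after their values were seen. A few genes that these rules select are not reported here. One name of the autophagy list, Fip200, is another name of Rb1cc1 and has no row of its own.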

Additional observations from a re-analysis of the deposited data

How the results depend on the processing

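Over 16 alternatives, the direction of Fth1, Ftl1, Slc11a1, Slc11a2, Tfrc and Ncoa4 was the same in 16 of 16, with log2 fold changes of -0.85 to -0.52 for Fth1, -0.74 to -0.36 for Ftl1, -1.03 to -0.63 for Slc11a1, -1.05 to -0.66 for Slc11a2, 0.31 to 0.57 for Tfrc and 0.05 to 0.29 for Ncoa4. DESeq2 called 3 of the genes (Fth1, Slc11a1 and Slc11a2) and the other alternatives 0, with adjusted p up to 0.506 for Fth1 when a library was left out. At an unadjusted p under 0.05 the count of 5 became 3 with limma on log2(FPKM + 0.1), without Ftl1 and Slc11a1, and 4 in 7 others: Ftl1 was lost with library totals and log2(FPKM + 1), and Tfrc, the 1 higher gene, without vehicle 2, vehicle 3, TP-18 1 or TP-18 2 and with the GC and length trend removed. Aco1 turned negative without vehicle replicate 2 (-0.10), without TP-18 replicate 1 (-0.0011) and with the GC and length trend removed (-0.0801). Ireb2 turned positive with library totals (0.13), limma on log2(FPKM + 1) (0.12) and on log2(FPKM + 0.1) (0.14), and without vehicle replicate 3 (0.0892), in a range of -0.148 to 0.0892 with a library left out. Over all genes the 14 calls became 4 with library totals, 27 without the filter, 499 with DESeq2, 2 and 1 with limma on log2(FPKM + 1) and log2(FPKM + 0.1), 63 with the trend removed, and 0 to 8 with a library left out: 8 without vehicle 1, 1 without vehicle 2 and 0 without any 1 of the others. Apart from the construction of each alternative, the cause was not tested.

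With a replicate block the calls over all genes were 3 and those among the 9 genes 0; the numbers do not mark a known pairing, and deviations of same-numbered libraries correlated at 0.161, 0.390 and -0.152. The block left the log2 ratios at -0.16 (Fth1 to Ftl1) and 1.09 (Tfrc to Fth1). With 3 libraries a group, changes of 2-fold or less are mostly beyond this test. In the main edgeR fit all differences among the 8 genes were below that size. The log2 fold change of Slc11a2 passed it with the GC and length trend removed (-1.03), without vehicle 2 (-1.02) and without TP-18 3 (-1.05). That of Slc11a1 passed it without TP-18 3 (-1.03).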
